A study of Homo sapiens with 2 samples.

Results

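Abundant, cancer-associated and imprinted long noncoding RNAs (lncRNAs) were followed in HSC-1 cells, a line from a cutaneous squamous cell carcinoma, as 10 named genes: MALAT1, NEAT1, NORAD, TUG1, CYTOR, PVT1, MIR22HG, KCNQ1OT1, H19 and MEG3. They were taken by name from the 44591 rows of the count table, of which 14957 carry a long noncoding type. The rule itself uses no measured value, but the names were chosen with earlier results of these data known. Total RNA was sequenced from HSC-1 cells treated with a control siRNA (siNC) or with an siRNA against the lncRNA LINP1 (siLINP1), and each treatment has 1 library. Both groups share the cell line, the transfection reagent, treatment at about 70% confluency, 6 h without serum and 24 h in medium with 10% serum. The methods of the study give a denser culture and a longer interval than the labels, so the time of collection is given differently by these sources. With 1 library per treatment there is no spread between cultures, no test and no p-value, and every interval below is a 95% counting interval that covers counting error only.

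An lncRNA acts as RNA. MALAT1 and NEAT1 stay in the nucleus, where MALAT1 gathers in nuclear speckles, stores of splicing factors, and NEAT1 is the scaffold of paraspeckles, bodies that hold proteins and edited RNAs. NORAD is a cytoplasmic RNA that binds Pumilio proteins, which shorten the life of the mRNAs they bind. KCNQ1OT1, H19 and MEG3 are imprinted, that is, transcribed from 1 parental chromosome, and KCNQ1OT1 silences its neighbours on the chromosome that makes it. CYTOR and PVT1 are often raised in carcinomas, TUG1 is a widely expressed RNA first studied in the retina, and MIR22HG is the transcript from which miR-22 is cut.

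The siRNAs of the study are shown because their guide strands can also pair by the seed with other transcripts. The text does not name which of them was used for the sequenced library. Capitals mark the bases that pair with bases 2 to 8 of the guide, and the sense strands read 5′ to 3′.
siLINP1_01: ccaactgcgggACTTCAGa
siLINP1_02: cactctccagcCTGCAAGa

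On GRCh37 the site of siLINP1_01 is chr10:6780757-6780775 and that of siLINP1_02 is chr10:6780487-6780505, both on the plus strand and inside an exon of all 4 annotated LINP1 transcripts. LINP1 itself had 167 reads in siNC against 23 in siLINP1, a log2 fold change of -2.65 (-3.35 to -2.02). The seed letters were counted in the annotated transcripts of the lncRNAs described here, with no background of other transcripts beside them. CYTOR held 1 site for siLINP1_01 and 0 for siLINP1_02, MALAT1 held 2 for each, TUG1 held 1 for each, NEAT1 held 1 and 0, and NORAD, MIR22HG, H19 and MEG3 held 0 for both. KCNQ1OT1, the longest transcript, held 4 and 8, and PVT1 was not searched. The longest run that any of these transcripts shared with either siRNA was 10 bases of 19. A match of letters is a description and not a measured effect.

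The siNC library held 18829544 counted reads against 15383081 in the siLINP1 library. The levels are RPKM, the reads of a gene scaled to its length and to the total of counted reads. The log2 fold changes compare siLINP1 with siNC on counts divided by size factors of 1.08 for siNC and 0.93 for siLINP1 (the median of each gene's ratio to its mean over both libraries). Where read counts are given as a pair, siNC comes first, and parentheses after them hold the log2 fold change and its interval. Genes with fewer than 10 summed reads (both libraries together) were left out, which kept 19840 genes and 9 of the 10 lncRNAs. Of 12 genes of squamous keratinocytes, 6 were under 1 RPKM in both libraries, among them KRT5 with 32 and 24 reads, TP63 with 6 and 8 and CDH1 with 14 and 3, while ITGB4 had 5990 and 3962, ITGA6 had 4677 and 5058, SFN had 264 and 138 and KRT14 had 243 and 87. Of 8 mesenchymal genes, 2 were under 1 RPKM in both libraries, COL1A2 with 4 and 8 reads and THY1 with 1 and 0. VIM was the deepest with 61097 and 41992, and SPARC had 34148 and 21107. CDH2 had 1862 and 1092, FN1 had 1151 and 753, ZEB1 had 697 and 883 and COL1A1 had 190 and 79. Of 5 blood cell genes, 3 were at 0 in both libraries and PTPRC had 1 and 4 reads, while CD68, a lysosomal protein of macrophages, had 1702 and 1307. Summed over 6 gastric genes, siNC held 384 reads (12.7 RPKM) and siLINP1 held 2 (0.0219 RPKM). Most were reads of PGC with 194 and 0, PGA3 with 95 and 0 and LIPF with 82 and 0. TFF1 with 1 and 0, GKN1 with 6 and 0 and MUC5AC with 6 and 2 were hardly read. Where these gastric reads came from, and the part of this difference in the values below, were not tested. Fewer cells that express a gene and less RNA per cell cannot be told apart in these bulk libraries.

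The lncRNAs spanned a wide range of levels, and their order was nearly the same in both libraries. In siNC it ran MALAT1, NORAD, NEAT1, CYTOR, PVT1, TUG1, MIR22HG, H19, KCNQ1OT1 and MEG3. NEAT1 (34.5 RPKM, 33.9 to 35.1) and CYTOR (33.1 RPKM, 30.5 to 35.9) were not separated beyond counting error there, nor were PVT1 (12.2 RPKM, 11.1 to 13.4) and TUG1 (11.9 RPKM, 11.3 to 12.4). In siLINP1, CYTOR stood above NEAT1, at 58.4 RPKM (54.6 to 62.5) against 27.4 RPKM (26.9 to 28.0). PVT1 was also clear of TUG1 in siLINP1, at 23.4 RPKM (21.7 to 25.2) against 13.9 RPKM (13.2 to 14.6). These places rest on the row lengths, which the intervals do not cover. The row of NEAT1 has 22743 bases and that of CYTOR 959, and NEAT1 had more reads in siLINP1, 9589 against 862.

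**Figure D1:**
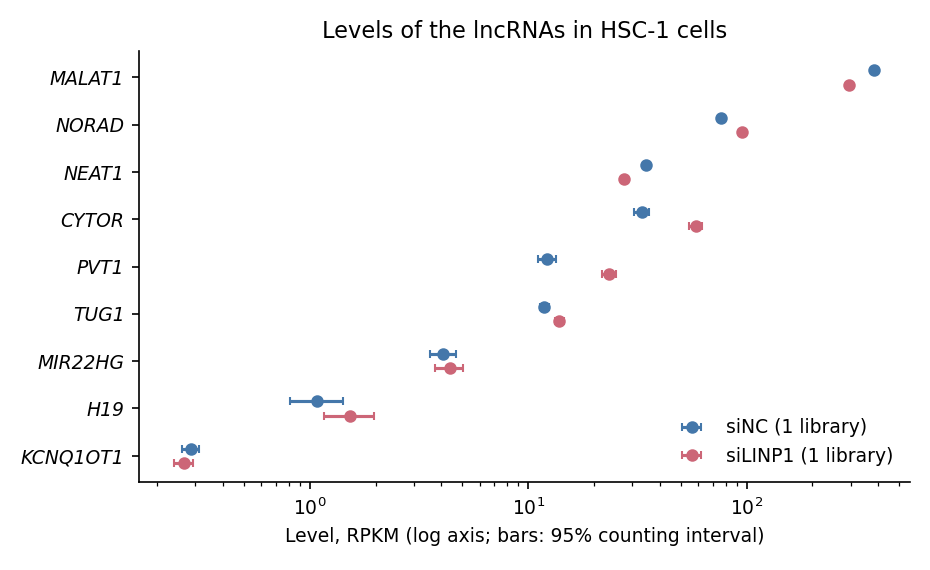
RPKM of each lncRNA (log axis) in siNC (blue) and siLINP1 (red), 1 library each, with 95% counting intervals, in the order of the siNC levels. MEG3, with 0 reads in siNC, is not drawn. MALAT1 and NEAT1 lie lower in siLINP1, at 294 and 27.4 RPKM, while CYTOR and PVT1 lie higher, at 58.4 and 23.4 RPKM.

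Against siNC, the 9 lncRNAs kept did not move as a block: 6 were higher in siLINP1 and 3 were lower. The whole counting interval lay above 0 for NORAD, TUG1, CYTOR and PVT1, and below 0 for MALAT1 and NEAT1. It spanned 0 for MIR22HG, KCNQ1OT1 and H19. CYTOR and PVT1 were higher by more than 1.5-fold, that is 2 of 9, where 14.4% of all genes kept were higher and 13% were lower by as much. Of the long noncoding rows kept, 23.0% were higher and 19.3% were lower by as much, so 2 of 9 is near the share of their own type. None of the lncRNAs was lower by more than 1.5-fold or differed by more than 2-fold in either direction, where 6.74% of all genes kept were past 2-fold upward and 5.3% downward. These shares were smaller among well-read genes. Of the 7071 genes with at least 1000 summed reads, a class that holds CYTOR and PVT1, 5.47% were past 1.5-fold upward and 3.56% downward. The median log2 fold change was 0.14 over the 9 lncRNAs, -0.02 over all genes kept and 0.03 over the 4145 long noncoding rows kept.

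**Figure D2:**
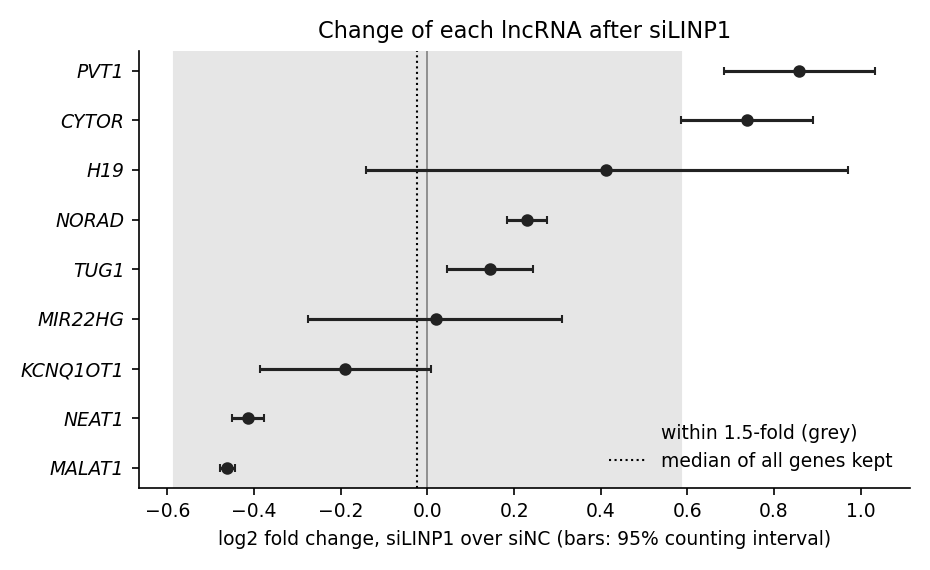
log2 fold change of each lncRNA, siLINP1 over siNC, with 95% counting intervals. The grey band is a change of less than 1.5-fold and the dotted line is the median of all genes kept. PVT1 (0.86) and CYTOR (0.74) lie beyond the band, NEAT1 (-0.41) and MALAT1 (-0.46) are the lowest.

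MALAT1 was the most abundant of the lncRNAs. It had 63194 reads in siNC against 39689 in siLINP1, which made it the 11th and the 10th gene of the table by reads. Its level was 382 RPKM in siNC and 294 RPKM in siLINP1, and its log2 fold change was -0.46 (-0.48 to -0.44). The value in siLINP1 was lower, and 17.8% of the genes kept had a lower log2 fold change than MALAT1. Of the genes with at least 1000 summed reads 8.27% did, and of the long noncoding rows kept 24.0%.

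The table places MALAT1 at chr11:65265209-65273987 on the plus strand (GRCh37). Its 3′ end is made by RNase P, which releases a tRNA-like small RNA (mascRNA), and the A-rich tract left behind folds into a triple helix that protects the transcript in place of a poly(A) tail. The junction is shown because it is how this transcript ends without a poly(A) tail. It lies at chr11:65273528-65273645 on the plus strand, with the last 60 bases of the mature transcript in capitals and the 58 bases of mascRNA in lower case.
MALAT1 3′ end: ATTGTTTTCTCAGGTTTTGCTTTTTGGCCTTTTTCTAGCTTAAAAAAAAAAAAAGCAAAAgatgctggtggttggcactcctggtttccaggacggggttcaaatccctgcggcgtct

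Of the last 15 bases before mascRNA, 13 are A. The row of mascRNA itself had 0 reads in both libraries. The whole transcript was not the only row at the locus with reads. TALAM1, an RNA of the opposite strand that covers 7205 bases or 82.1% of the MALAT1 span, was listed with 55851 reads in siNC against 36232 in siLINP1. These are 88.4% and 91.3% of the reads of MALAT1, and the log2 fold change of TALAM1 was -0.41 (-0.43 to -0.40). How the counting treated strand is not given in the sources used here, so the reads of MALAT1 and TALAM1 cannot be told apart.

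NEAT1 lies next to MALAT1, at chr11:65190269-65213011 on the plus strand. It had 14774 reads in siNC against 9589 in siLINP1, and its log2 fold change was -0.41 (-0.45 to -0.38), so that it too was lower in siLINP1. The table holds 1 row for NEAT1 over 22743 bases, and a short and a long isoform, of which the long one builds paraspeckles, could not be separated. The ratio of the pair moved little. The RPKM of MALAT1 was 11.1 times that of NEAT1 in siNC and 10.7 times in siLINP1, a log2 change of the ratio of -0.05 (-0.089 to -0.0062). The coding neighbour FRMD8 was lower as well, with 1988 and 1231 reads (-0.48, -0.59 to -0.38).

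Together MALAT1 and NEAT1 took 0.414% of all counted reads in siNC (0.411% to 0.417%) and 0.320% in siLINP1 (0.318% to 0.323%). The other 8 lncRNAs together went the other way, from 0.0594% (0.0583% to 0.0605%) to 0.0754% (0.0741% to 0.0768%). All 10 made up 14% of the reads on long noncoding rows in siNC and 11.7% in siLINP1. Those rows include TALAM1, with 55851 and 36232 reads that cannot be told apart from those of MALAT1. Some reads may therefore be counted more than once in the total.

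Like most genes with at least 1000 summed reads, the genes of the protein partners of the nuclear pair stayed mostly within 1.5-fold. Among all genes of that depth, 5.47% were past it upward and 3.56% downward, against 0 and 1 (5.56%) of the paraspeckle genes. Of 18 paraspeckle proteins, 6 were higher and 12 lower in siLINP1, with a median log2 fold change of -0.11. Over all genes with at least 1000 summed reads, 3889 of 7071 (55.0%) were lower and the median was -0.04. Scaled by the total count, the paraspeckle genes were 7 higher and 11 lower, with a median of -0.03. Under that scaling 44.5% of the genes with at least 1000 summed reads were lower, and their median was 0.04. SFPQ, a core protein that binds NEAT1, had 7203 and 6890 reads (0.15, 0.098 to 0.19), and its partner NONO had 7967 and 6671 (-0.05, -0.094 to 0.00043). DAZAP1, an RNA-binding protein of paraspeckles, was the 1 paraspeckle gene past 1.5-fold, with 3486 reads in siNC against 1716 in siLINP1 (-0.81, -0.90 to -0.73). HNRNPH3, a splicing factor needed for paraspeckles, stood at the other end with 1655 and 2041 reads (0.51, 0.42 to 0.61), followed by PSPC1 with 1196 and 1326 (0.36, 0.24 to 0.47).

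Of 15 genes of nuclear speckles and of MALAT1 maturation, 5 were higher and 10 lower, and their median was -0.10. Past 1.5-fold were 0 of the 15, beside 5.47% upward and 3.56% downward among genes with at least 1000 summed reads. Scaled by the total count, 7 of the 15 were higher and 8 lower. Their median was then -0.02, where that of the genes with at least 1000 summed reads was 0.04. SON and SRRM2, which form the core of speckles, had log2 fold changes of 0.08 (0.020 to 0.14) and -0.10 (-0.13 to -0.062). RPP30, a subunit of the RNase P that cuts MALAT1, had 651 and 394 reads (-0.52, -0.70 to -0.33), whereas the subunit RPP38 had 283 and 328 (0.42, 0.19 to 0.66). ELAC2, which trims tRNAs and mascRNA, had 2650 and 1843 (-0.31, -0.40 to -0.23).

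Of 11 genes of nuclear RNA decay, 5 were higher and 6 lower, with a median of -0.00016. Past 1.5-fold was 1 of the 11 in each direction (9.09%), beside 5.47% upward and 3.56% downward among genes with at least 1000 summed reads. RBM7, the RNA-binding subunit of the complex that brings short-lived nuclear RNAs to the exosome, had 481 and 692 reads (0.73, 0.56 to 0.91), and ZCCHC8, its scaffold, had 813 and 868 (0.30, 0.16 to 0.44). The poly(A) polymerase PAPOLA had 1949 and 1089 (-0.63, -0.74 to -0.52). PABPN1, the nuclear poly(A)-binding protein, had 2654 and 2143 (-0.10, -0.18 to -0.016).

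NORAD was the second lncRNA by level. It had 7677 reads in siNC against 7785 in siLINP1 although the siLINP1 library was the smaller, and its level was 76.3 RPKM and 94.7 RPKM. The log2 fold change was 0.23 (0.18 to 0.28), on the opposite side of 0 from MALAT1. Against NORAD as a within-library reference, MALAT1 went from 5.01 to 3.10 times its RPKM, a log2 change of -0.69 (-0.74 to -0.64), which no scaling of the libraries can alter.

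NORAD lies at chr20:34633540-34638882 on the minus strand. Pumilio proteins bind the letters TGTANATA, read here on the transcript strand only, with N for any base. The annotated NORAD transcript of 5401 bases held 15 of them, which is 2.78 per kilobase, while NEAT1 held 6 in 22743 bases, TUG1 held 2 in 7474, KCNQ1OT1 held 9 in 91667, MEG3 held 1 in 12998 and MALAT1, CYTOR, MIR22HG and H19 held 0. Each of the 3 forms found in NORAD is shown once with its flanks, since NORAD held more of them per kilobase than any other transcript searched, and the element is in capitals.
NORAD bases 819 to 826: ggaaggcctgTGTATATAatatgaaaaa
NORAD bases 1299 to 1306: aatcacatttTGTAAATAcctttttgtt
NORAD bases 1509 to 1516: gtgtatatagTGTACATAaaggacagac

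The form TGTATATA accounted for 10 of the 15, TGTAAATA for 4 and TGTACATA for 1. PUM2, a Pumilio gene, lay near 0 with 2337 and 1983 reads (-0.03, -0.11 to 0.059). Among all 8 genes of proteins that NORAD is known to bind, 3 were higher and 5 lower, with a median of -0.04. Past 1.5-fold were 0 of the 8, beside 5.47% upward and 3.56% downward among genes with at least 1000 summed reads. TOP1, the DNA topoisomerase, had 4134 and 5034 reads (0.49, 0.43 to 0.55), and RBMX, a nuclear RNA-binding protein, had 4910 and 3437 (-0.31, -0.37 to -0.24). The coding neighbour EPB41L1 had 965 and 669 reads (-0.32, -0.46 to -0.18), opposite in sign to NORAD, and CNBD2 had 15 and 5 (-1.38, -3.19 to 0.16).

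TUG1 had 1711 reads in siNC against 1636 in siLINP1, or 11.9 RPKM and 13.9 RPKM, and a log2 fold change of 0.14 (0.046 to 0.24). It lies at chr22:31365197-31375381 on the plus strand. The difference was small and within the range of its coding neighbours. MORC2, a chromatin silencing protein whose gene lies 0.924 kb away, had 975 and 741 reads (-0.19, -0.33 to -0.047), and SMTN, a smooth muscle protein, had 2188 and 2632 (0.48, 0.39 to 0.56). Set against NORAD, TUG1 was not separated from it by counting error, with a log2 change of their ratio of -0.08 (-0.19 to 0.023).

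**Figure D3:**
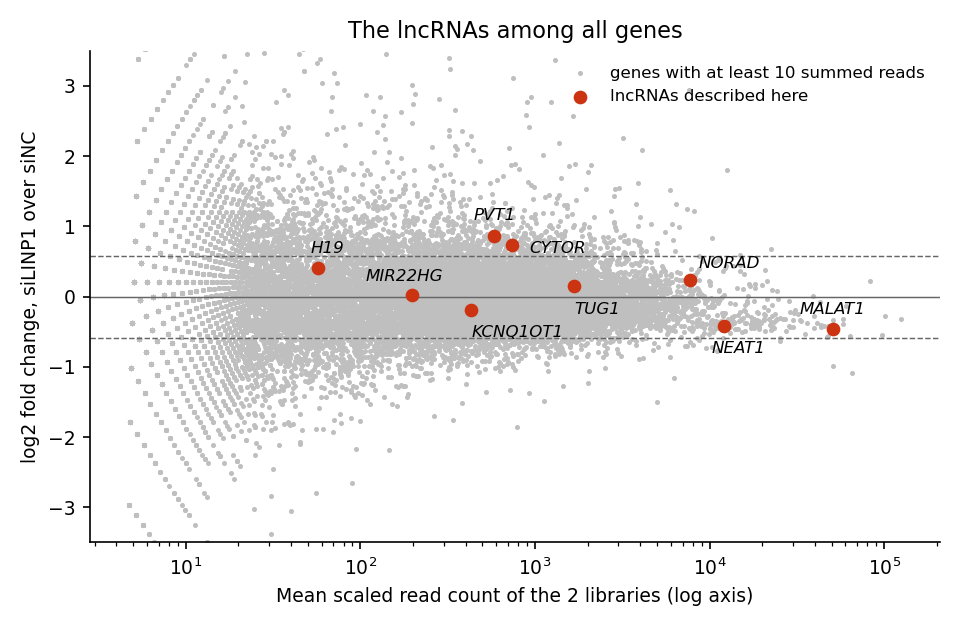
Mean scaled read count (log axis) and log2 fold change of each gene with at least 10 summed reads (grey), with the 9 lncRNAs kept in red and dashed lines at 1.5-fold. The 67 genes beyond the drawn range and genes at 0 in either library are left out. The spread narrows with depth, and PVT1 and CYTOR lie above the upper line while MALAT1, the most abundant lncRNA, lies below 0.

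CYTOR had 598 reads in siNC against 862 in siLINP1. Its level was 33.1 RPKM in siNC and 58.4 RPKM in siLINP1, and the log2 fold change was 0.74 (0.58 to 0.89). It was thus 1.67-fold higher in siLINP1, and 96.7% of the genes with at least 1000 summed reads had a lower log2 fold change. Of all genes kept 89.2% did, and of the long noncoding rows kept 81.8%. Relative to MALAT1 the RPKM of CYTOR went from 0.0866 to 0.199, a log2 change of 1.20 (1.05 to 1.35).

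CYTOR lies at chr2:87754974-87821037 on the plus strand, and a near copy of it, MIR4435-2HG, lies elsewhere on that chromosome. Over 638 aligned bases of the 1020 in the CYTOR transcript, 635 were identical (99.5%), and 69.7% of its windows of 50 bases occur letter for letter in MIR4435-2HG. The stretch of 90 aligned bases with most differences is shown because reads that do not cover such a base can be placed at either gene. Capitals mark the 2 bases that differ, in bases 698 to 787 of CYTOR and 386 to 475 of MIR4435-2HG.
CYTOR: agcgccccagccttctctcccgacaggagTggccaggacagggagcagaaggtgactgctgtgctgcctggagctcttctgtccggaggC
MIR4435-2HG: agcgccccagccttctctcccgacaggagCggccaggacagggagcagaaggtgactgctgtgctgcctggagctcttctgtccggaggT

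MIR4435-2HG had 886 reads in siNC against 1015 in siLINP1, and its log2 fold change of 0.41 (0.27 to 0.54) had the sign of CYTOR. The RPKM of CYTOR was 3.96 times that of the copy in siNC and 4.98 times in siLINP1, so the ratio itself differed by 0.33 on the log2 scale (0.13 to 0.53). How the reads of this pair were divided is not given in the sources used here, and the value of CYTOR is uncertain to that extent. A further row that holds the whole CYTOR span within a longer one, ENSG00000222041.6, had 739 and 1007 reads (0.66, 0.52 to 0.79). Its level was 13.0 RPKM in siNC and 21.7 RPKM in siLINP1, below NEAT1 (34.5 RPKM and 27.4 RPKM) in both libraries. The place of CYTOR in the order of levels thus depends on the row taken. The nearest coding genes were hardly read: RGPD1 had 8 and 10 reads, and PLGLB2 had 22 and 21.

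The promoter of CYTOR is shown since this gene was 1 of the 2 past 1.5-fold. The sequence is from RefSeq on GRCh38.p14, chr2:87455177-87455476 on the plus strand, 250 bases before and 50 after the start, and capitals mark the letters TGANTCA, which the AP-1 factors of the FOS and JUN families bind.
CYTOR promoter: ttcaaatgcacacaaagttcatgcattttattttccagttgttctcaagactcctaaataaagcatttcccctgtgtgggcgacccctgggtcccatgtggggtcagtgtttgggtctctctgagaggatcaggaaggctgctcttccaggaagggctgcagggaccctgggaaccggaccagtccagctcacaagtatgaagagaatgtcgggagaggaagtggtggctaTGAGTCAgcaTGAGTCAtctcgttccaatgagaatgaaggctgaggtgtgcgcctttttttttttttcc

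The CYTOR promoter held 2 such matches, which start at bases 232 and 242 of the 300. Of 35116 RefSeq promoters of the same length, 7.71% held the letters on either strand and 0.515% held them 2 times or more. The motif was chosen with results known, so these shares describe the letters, and binding of AP-1 was not tested. The promoters of MALAT1, NORAD, TUG1, MIR22HG, H19 and MEG3 held 0, and those of NEAT1 and KCNQ1OT1 were not matched.

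PVT1 had 446 reads in siNC against 699 in siLINP1, or 12.2 RPKM and 23.4 RPKM. The log2 fold change was 0.86 (0.68 to 1.03), the highest of the lncRNAs, and 97.8% of the genes with at least 1000 summed reads had a lower one. Of all genes kept 91.5% did, and of the long noncoding rows kept 85.0%. PVT1 was not separated from CYTOR by counting error, with a log2 change of their RPKM ratio of 0.12 (-0.11 to 0.35). PVT1 lies at chr8:128806779-129113499 on the plus strand and shares its region with MYC, the growth-promoting transcription factor whose gene lies 53.1 kb before it. MYC had 564 reads in siNC against 908 in siLINP1, a log2 fold change of 0.90 (0.74 to 1.05) that lay close to that of PVT1. The coding gene on the far side, FAM49B, was lower, with 1598 and 1086 reads (-0.35, -0.46 to -0.24). Of the miRNA rows inside PVT1, MIR1204 had 3 and 19 reads (2.87, 1.11 to 5.27), and MIR1205, MIR1206 and MIR1207 had at most 2 in either library.

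MIR22HG had 210 reads in siNC against 184 in siLINP1, or 4.07 RPKM and 4.37 RPKM. The log2 fold change was 0.02 (-0.27 to 0.31), so neither a fall nor a rise of this host transcript was detectable at this depth. Its coding neighbours were both lower: TLCD2 had 422 and 269 reads (-0.44, -0.67 to -0.22) and WDR81, 0.251 kb away, had 1153 and 694 (-0.52, -0.66 to -0.39). WDR81 is a protein of endosomes.

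MIR22HG lies at chr17:1614798-1619566 on the minus strand. The mature miRNAs cut from it and from H19 are shown because the library measured their host transcripts and not the miRNAs themselves. The sequences are from RefSeq, with the seed (bases 2 to 8) in capitals, and no pair of them shares a seed.
hsa-miR-22-3p: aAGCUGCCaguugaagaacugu
hsa-miR-22-5p: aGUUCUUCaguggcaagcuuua
hsa-miR-675-3p: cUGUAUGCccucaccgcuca
hsa-miR-675-5p: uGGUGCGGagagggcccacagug

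The rows MIR22 and MIR675 had 0 reads in both libraries, which allows up to 3 reads of each, or 0.159 CPM (counts scaled to the library total) in siNC and 0.195 CPM in siLINP1. Of 17 listed miRNA host lncRNAs in the table, 14 were kept, with 9 higher, 2 of them past 1.5-fold, 5 lower, 3 of them past 1.5-fold, and a median of 0.04. For comparison, 23.0% of all long noncoding rows kept were past 1.5-fold upward and 19.3% downward. MIR210HG, host of the hypoxia miRNA miR-210, had 93 and 30 reads (-1.42, -2.07 to -0.82). MIR31HG had 104 and 140 (0.64, 0.26 to 1.02) and MIR17HG, host of the miR-17 to miR-92 cluster, had 127 and 145 (0.40, 0.047 to 0.76). MIR100HG, the deepest with 3195 and 3226 reads, stood at 0.22 (0.15 to 0.29).

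KCNQ1OT1 had 493 reads in siNC against 374 in siLINP1. Spread over the 91671 bases of its row, that is 0.286 RPKM and 0.265 RPKM, so it was the 9th of the 10 by level despite more reads than PVT1 in siNC. The log2 fold change was -0.19 (-0.39 to 0.0077), and a difference was not shown beyond counting error. It lies at chr11:2629558-2721228 on the minus strand, inside the gene of the potassium channel KCNQ1 on the opposite strand, which had 2 reads in each library.

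H19 had 53 reads in siNC against 61 in siLINP1, or 1.08 RPKM (0.812 to 1.42) and 1.53 RPKM (1.17 to 1.96). The log2 fold change of 0.41 had an interval from -0.14 to 0.97, and both directions were possible at this depth. It lies at chr11:2016406-2022696 on the minus strand. HOTS, on the opposite strand over 17.8% of the H19 span, had 30 and 14 reads (-0.89, -1.92 to 0.070). The growth factor gene IGF2, whose expression is set by the same imprinting control region, had 2 and 18 reads (3.38, 1.32 to 6.53), and the row INS-IGF2 held the same counts.

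The imprinted cluster on the short arm of chromosome 11 showed no common direction. Of its 15 listed genes 10 were kept, 4 higher and 6 lower, with a median of -0.05. Past 1.5-fold were 2 of the 10 in each direction, beside 14.4% upward and 13% downward over all genes kept. CDKN1C, a cell cycle inhibitor that KCNQ1OT1 silences in cis, had 334 and 287 reads (-0.01, -0.24 to 0.22). PHLDA2, another of its targets and a restraint on placental growth, had 1210 and 1511 (0.53, 0.42 to 0.64). CD81, a tetraspanin, had 2180 and 1221 (-0.63, -0.73 to -0.53), and NAP1L4, a histone chaperone, had 1643 and 1212 (-0.23, -0.34 to -0.12).

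MEG3 had 0 reads in siNC against 1 in siLINP1. A count of 0 allows up to 3 reads, or 0.159 CPM in siNC, and no fold can be given. It lies at chr14:101292445-101327363 on the plus strand, and of the 6 other genes listed at this imprinted cluster DLK1, MEG8 and DIO3OS had 0 reads in both libraries. RTL1, a gene derived from a retrotransposon, was the only 1 kept, with 13 and 13 reads (0.21, -1.02 to 1.44).

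The list of imprinted genes elsewhere was read more deeply than the cluster at MEG3. GNAS alone held 18837 of its 29942 reads in siNC. Of 24 listed, 17 were kept, 10 higher and 7 lower, with a median of 0.09. Both SNRPN with 2003 and 1956 reads and SNURF with 2005 and 1958, nearly the same counts, are among the 10. Past 1.5-fold were 3 upward (17.6%) and 1 downward (5.88%), beside 14.4% and 13% over all genes kept. GRB10, an adaptor that restrains insulin and growth factor signalling, had 327 and 778 reads (1.46, 1.27 to 1.65). UBE3A, a ubiquitin ligase, had 1288 and 1777 (0.67, 0.57 to 0.78) and IGF2R, the receptor that clears IGF2, had 3355 and 4029 (0.47, 0.41 to 0.54). GNAS, the stimulatory G protein subunit, was the deepest with 18837 and 17685 (0.12, 0.089 to 0.15), while its antisense RNA GNAS-AS1 had 125 and 68 (-0.67, -1.12 to -0.23).

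**Figure D4:**
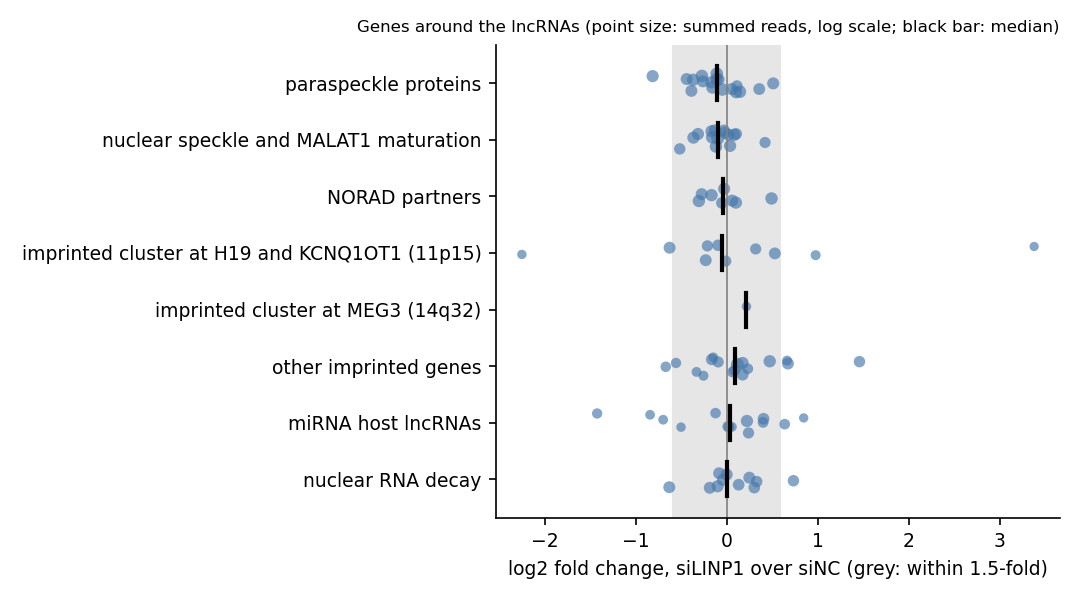
log2 fold change, siLINP1 over siNC, of each kept gene of the lists around the lncRNAs, 1 row of points per list, with point size by summed reads, the list median as a black bar and the range within 1.5-fold in grey. The medians lie near 0 (-0.11 for paraspeckle proteins, 0.09 for other imprinted genes), and single genes such as GRB10 (1.46) and MIR210HG (-1.42) stand off.

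Of the 6 lncRNAs with at least 1000 summed reads, 4 were higher and 2 lower in siLINP1. Among all 140 long noncoding rows of this depth, 12 were past 1.5-fold upward and 6 downward, with a median of -0.02, and CYTOR and PVT1 are 2 of the 12. The scaling of the libraries moved all values together by at most 0.08 on the log2 scale, and none of the 9 lncRNAs changed sign under any scaling.

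**Figure D5:**
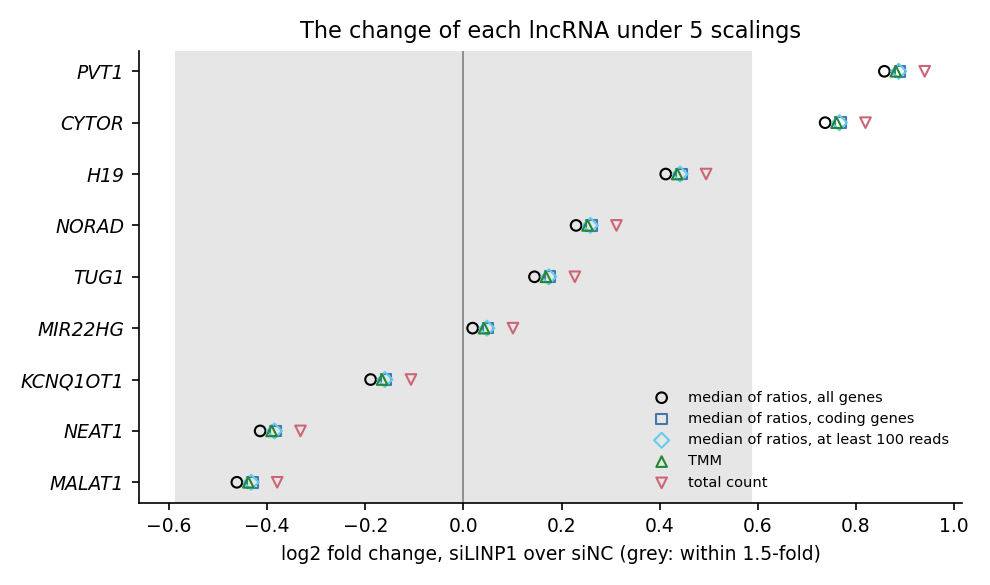
log2 fold change of each lncRNA under 5 scalings of the libraries, with the range within 1.5-fold in grey. Scaling by the total count moves every value upward by 0.08, MALAT1 and NEAT1 stay below 0 under all 5, and CYTOR and PVT1 stay beyond the band.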

How the data were processed

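The authors sequenced total RNA of HSC-1 cells (Illumina HiSeq), used Tophat2 for alignment to GRCh37/hg19 and HTSeq for counting on genes, and the submitters' processing notes also name HISAT2 and Bowtie2. The deposited values used were raw read counts, 1 column per library. The deposited RPKM values, made by the authors from the count, the gene length and the total count, were used for levels. Annotation, versions, counting mode and strand setting are not given in the sources used here, and 12 other columns of per-sample values were not used.

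Counts were divided by median-of-ratios size factors with no pseudocount, and genes with fewer than 10 summed reads were left out. The 95% intervals are Clopper-Pearson bounds on the share of a gene's reads in siLINP1 as a log2 fold, or of its share of a library, and a count of 0 allows 3 reads. The interval of a change in the ratio of a pair of genes takes the logarithms of their counts as normal. All cover counting error only, since PCR reads are not independent molecules. With 1 library per group no test was run. The folds of 1.5 and 2 were read against all genes kept. Transcripts came from the GENCODE annotation lifted to GRCh37, choosing the one nearest in length to the row, and promoters (GRCh38.p14) and miRNAs from RefSeq. Sequence searches left out PVT1. The promoter motifs were chosen with results known, and searches for an interferon response element and a kB site were also made and are not reported here.

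The lncRNAs and lists were chosen with earlier results of these data known. Named genes were the 10 lncRNAs, LINP1, the nearest coding gene on each side, and in each list those with at least 100 summed reads that were highest or lowest (up to 3 each) or past 1.5-fold. Genes named outside this rule (SRRM2, NONO, PUM2, PABPN1, MIR100HG, GNAS, IGF2, DLK1, MEG8, DIO3OS and the overlapping rows) were chosen after their values were seen. A few genes that the rule names are not reported here. Alternatives tried were other scalings (total count, edgeR TMM factors, coding genes, genes with at least 100 reads), pseudocounts of 1 and 5, minimums of 1 and 100 reads, other denominators, and, added after seeing the data, leaving out long noncoding rows that overlap a coding gene. The interval was tested on simulated data drawn with counting error alone, the error it assumes. That test cannot show how well the interval holds for these libraries. The tools were R 4.3.3 with edgeR 4.0.16 (for TMM factors alone) and Python 3.11.15 with scipy 1.17.1, pandas 2.3.3, numpy 2.4.6 and matplotlib 3.10.9.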

Additional observations from a re-analysis of the deposited data

How the results depend on the processing

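Each of the 9 log2 fold changes was recomputed under 6 alternatives, 54 values in all, and 0 changed sign. The counts of lncRNAs past 1.5-fold and 2-fold were 2 and 0 under each scaling, pseudocount and minimum tried. None of these alternatives varied how reads were divided between CYTOR and MIR4435-2HG. The counting interval of CYTOR also reaches down to 1.5-fold, with a lower bound of 0.5848 where 1.5-fold is 0.5850. Scaling by the total count raised every log2 fold change by 0.08 and moved the median of the long noncoding rows from 0.03 to 0.11. It also turned 3 list medians from below 0 to above 0, to 0.04 for the NORAD partners, 0.03 for the imprinted cluster around H19 and 0.08 for nuclear RNA decay. With the total count, NEAT1 moved beyond its counting interval from -0.41 to -0.33 and NORAD from 0.23 to 0.31. MALAT1 moved beyond its narrow counting interval, from -0.46 to -0.38 with the total count, -0.44 with TMM factors and -0.43 with coding genes or genes with at least 100 reads. By CPM, which leaves out the length, 2 of the 10 lncRNAs kept their place in the order of levels in siNC and 2 in siLINP1. Without the 2312 long noncoding rows that overlap a coding gene, a choice made after seeing the data, the median of the remaining 1833 was 0.04. No paired analysis was possible because each group has 1 library. Depth leaves H19, MIR22HG and KCNQ1OT1 without a direction and MEG3 without a fold, and the 2 libraries cannot separate the siRNA from any other difference between the 2 cultures.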

Other observations

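The promoter of MEG3 held the letters TGACGTCA, a cyclic AMP response element, at 1 site that lies in the overlapping windows of its 3 RefSeq starts, and 1.85% of the 35116 RefSeq promoters hold them on either strand. MEG3 had 0 reads in siNC and 1 in siLINP1. The letters TGATGNAA, bound by CHOP with ATF4, were in the promoter of none of MALAT1, NORAD, TUG1, CYTOR, MIR22HG, H19 and MEG3, and 3.62% of RefSeq promoters hold them.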
